A study of Mus musculus with 11 samples.

Results

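Genes of the cytochrome P450 families 1 to 4 were examined in mouse liver, leaving out the *Cyp2c* and *Cyp4a* genes and the pseudogenes. The members were taken by gene symbol alone. Of the 13669 genes in the count table, 60 belonged to these families. The 12 *Cyp2c*, the 5 *Cyp4a* and the 8 pseudogene rows were left out, so that 35 protein-coding genes of 13 subfamilies remained. Livers came from male wild-type C57BL/6J mice on regular chow, and all of them had received a recombinant adeno-associated virus. In 6 animals the virus expressed a tough decoy RNA against *miR-379* and *miR-541* (AAV-TuD), and in 5 it expressed a negative control sequence (AAV-NC). A tough decoy is a structured RNA with binding sites that sequester a miRNA. The vector carried a liver-specific promoter, so that expression of the decoy was directed to hepatocytes, and no liver without virus is among the samples analysed. The study's methods give an age at arrival, a fast before killing and a span of weeks to months after the injection for its TuD studies, but values per animal were not given in the sources used here. Polyadenylated RNA was sequenced from the 3′ end, and the values are reads per gene in each liver.

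P450 enzymes are haem proteins, mostly of the endoplasmic reticulum, that insert oxygen into their substrates with electrons from P450 oxidoreductase. In the liver, enzymes of families 1 to 3 are best known for the oxidation of drugs, toxins and steroids, and those of family 4 for the hydroxylation of fatty acids and eicosanoids. Many of these genes are read out through ligand-activated receptors, such as the aryl hydrocarbon receptor for *Cyp1a*, CAR for *Cyp2b* and PXR for *Cyp3a*, and they lie in tandem clusters of similar sequence.

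The 2 miRNAs bound by the decoy are shown because their seeds, bases 2 to 8 in capitals, were searched in the P450 transcripts. Both lie on the plus strand of chromosome 12, *miR-379-5p* at chr12:109709065-109709085 and *miR-541-5p* at chr12:109742422-109742446 (RefSeq, GRCm38.p6).
mmu-miR-379-5p: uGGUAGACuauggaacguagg
mmu-miR-541-5p: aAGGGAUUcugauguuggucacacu
No match to either seed was found in the longest annotated 3′ UTR of the 34 P450 genes that have one. Among all 11102 genes of the table with a 3′ UTR, 5.22% held a match for *miR-379-5p* and 8.92% for *miR-541-5p*. The 3′ UTRs of the P450 genes were shorter, with a median of 401 bases against 1214, and absence of these letters says nothing about other kinds of binding. The study reported that the decoy also lowered the host transcripts *lncMGC* and *Mirg* and other miRNAs of the same miRNA cluster. Seeds of those other miRNAs were not searched.

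Each liver gave between 8148531 and 12043959 reads. Major urinary protein (*Mup*) genes took between 8.58% and 40.2% of them, and counts were therefore scaled with TMM factors, which lay between 0.667 and 1.24. The *Mup* share was highest in AAV-NC liver 7 (40.2%) and AAV-TuD livers 3 (32.3%) and 5 (29.6%), and no batch is named in the labels. The 6 hepatocyte markers summed to 33730 to 40080 CPM (reads relative to the TMM-scaled library size) in AAV-NC livers and 41480 to 47840 CPM in AAV-TuD livers. The sum is mostly *Alb*, which encodes albumin and was higher in 6 of 6 AAV-TuD livers without being called (log2 fold change 0.41, adjusted p = 0.0805 by the edgeR quasi-likelihood test), while *Hnf4a* was called lower. *Serpina1c* was lower in 6 of 6 AAV-TuD livers without being called (-0.35, adjusted p = 0.0631 from the same edgeR test). *Ttr* (0.09), *Apoa1* (-0.20) and *Tat* (-0.17) were not called. The median log2 fold change of the 6 markers was -0.19, and DESeq2 called 3 of them. Markers of other cell types differed as well. Of 8 stellate cell markers 6 were higher with AAV-TuD, with sums of 192.6 to 249.8 CPM in AAV-NC and 336.1 to 447.3 CPM in AAV-TuD livers, as were all 5 cholangiocyte markers tested (85.7 to 121.7 against 151.4 to 189.3 CPM), 4 of 6 Kupffer cell markers (69.5 to 111.0 against 83.0 to 245.5 CPM) and 1 of 2 neutrophil and monocyte markers tested (14.1 to 20.3 against 19.9 to 37.3 CPM). None of 6 endothelial markers was called by edgeR or DESeq2 or had an unadjusted p under 0.05 (228.7 to 250.9 against 232.3 to 251.1 CPM). The part of these differences in the P450 results was not tested, and in whole liver fewer cells of a type and less RNA per cell cannot be told apart.

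In AAV-NC livers the P450 levels ran from a mean of 0.446 CPM to one of 1842 CPM. Each transcript is read from its 3′ end, and values were not divided by length. *Cyp2e1*, the ethanol-oxidizing P450, and *Cyp3a11*, the main drug-oxidizing P450 of mouse liver, were the only 2 genes above 1000 CPM, and together they gave 41.7% of all reads of the 35 genes. A further 12 genes lay between 100 and 1000 CPM, 8 between 10 and 100 CPM, 12 between 1 and 10 CPM, and *Cyp4f16* alone was under 1 CPM. The 35 genes summed to 7441 ± 909 CPM (SD, n = 5) with AAV-NC and 7729 ± 367 CPM (SD, n = 6) with AAV-TuD. Without *Cyp3a11* the sums were 6182 ± 893 and 5763 ± 287 CPM. The sum of the 35 genes therefore differed by less than the spread between livers.

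All 35 genes passed the filter on low counts. At an adjusted p under 0.05 by the edgeR quasi-likelihood test (Benjamini-Hochberg method over 13334 genes), 9 of the 35 (25.7%) were called, against 11.6% of all genes tested. Expression was higher with AAV-TuD for *Cyp4f16*, *Cyp2j6* and *Cyp3a11* (3 of 35, against 7.24% of all genes), and lower for *Cyp2u1*, *Cyp4f13*, *Cyp4f14*, *Cyp2d22*, *Cyp3a13* and *Cyp4f15* (6 of 35, against 4.33%). *Cyp4f16* met the filter through AAV-TuD livers alone, and without it 8 of 34 genes were called, 2 higher and 6 lower. Many P450 genes are abundant, and among all 1899 genes with at least 50 CPM on average 20.1% were called, 3.74% higher and 16.3% lower. Of the 17 P450 genes above that level 5 were called, 1 higher and 4 lower. The groups did not overlap for 7 of the 35 genes, against 7.39% of all genes: 3 were higher, against 4.11%, and 4 lower, against 3.28%. The median log2 fold change of the 35 genes was -0.04 (16 positive, 19 negative) and that of all genes -0.0024, whereas with library size alone these medians were 0.27 and 0.23. The called genes did not stand alone at the top of the expression range: only *Cyp3a11* is among the 5 most abundant P450 genes.

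**Figure D1:**
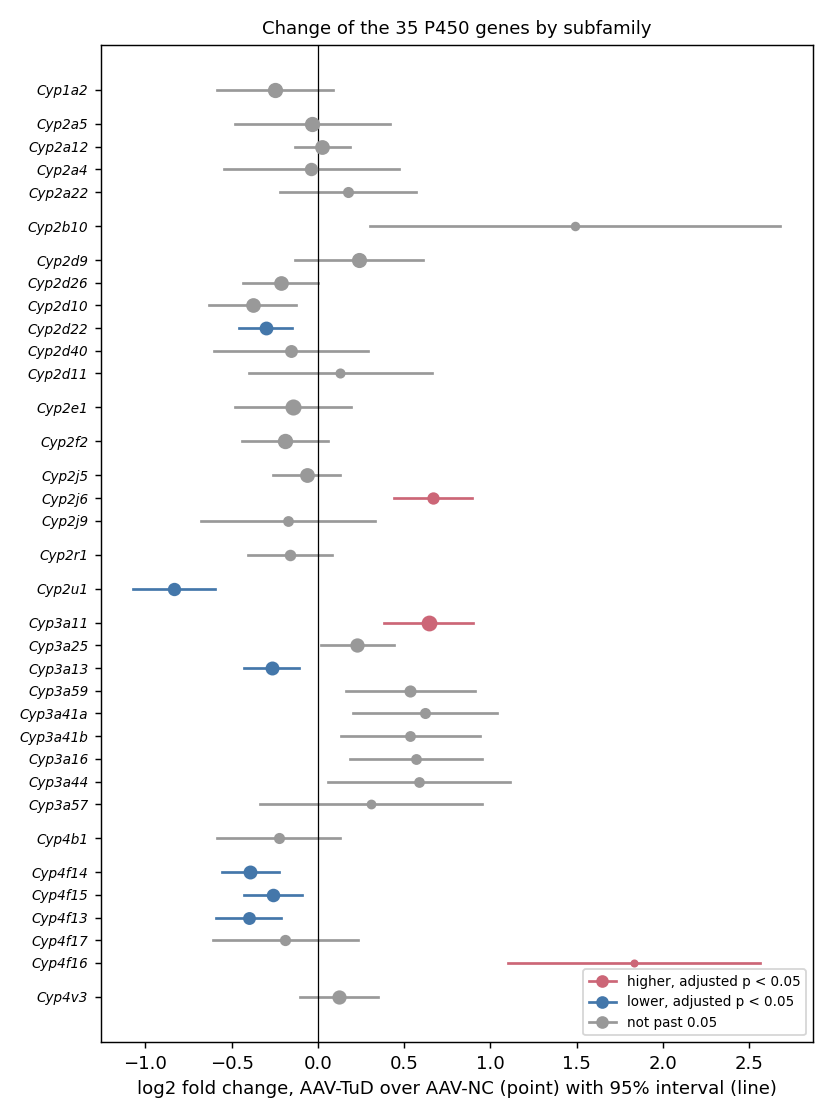
Log2 fold change of AAV-TuD over AAV-NC with TMM scaling (x axis, point) with its 95% interval (line) for each of the 35 P450 genes (y axis), grouped by subfamily with the most abundant gene first and a point size that grows with abundance. The 3 higher genes are red and the 6 lower genes blue, and 8 of the 9 *Cyp3a* points lie right of 0 and 4 of the 5 *Cyp4f* points left of it.

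The *Cyp3a* genes encode the broad-specificity oxidases of drugs, bile acids and steroids. Summed over the 9 genes, they gave 1563 ± 157 CPM (SD, n = 5) in AAV-NC livers and 2293 ± 349 CPM (SD, n = 6) in AAV-TuD livers, a ratio of 1.47. The AAV-NC sums ran from 1465 to 1840 CPM and the AAV-TuD sums from 1851 to 2771 CPM. The groups thus did not overlap, but the highest control, AAV-NC 1, came close to the lowest AAV-TuD liver, AAV-TuD 3. *Cyp3a11* gave 80.5% of the sum in AAV-NC livers and set its course.

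*Cyp3a11* (ENSMUSG00000056035, chr5:145854426-145879964 of GRCm38, minus strand) had 1496, 1225, 1168, 1188 and 1219 CPM in AAV-NC livers 1, 2, 6, 7 and 8. In AAV-TuD livers its lowest, median and highest values were 1558, 2006 and 2427 CPM. All 6 AAV-TuD livers lay above all AAV-NC livers. The log2 fold change was 0.64 (SE 0.12, adjusted p = 0.00409 by the edgeR quasi-likelihood test). The last bases of its transcripts are almost unique, since 0.6% of their windows of 50 bases were shared with another gene.

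*Cyp3a13* (ENSMUSG00000029727, chr5:137892932-137921619, minus strand), a relative also known from the intestine, moved the other way. It had 111.8, 101.8, 110.1, 96.8 and 120.0 CPM in AAV-NC livers and 84.6, 87.6 and 103.3 CPM (lowest, median, highest) in AAV-TuD livers. Of the 6 AAV-TuD livers 5 lay below every control, and AAV-TuD 11 was within the control range. The log2 fold change was -0.27 (SE 0.08, adjusted p = 0.0302 by the edgeR quasi-likelihood test), and this call was lost when any of AAV-NC livers 1, 6 or 8 or AAV-TuD livers 4, 9 or 10 was left out, or with library size alone (highest adjusted p with 1 liver left out 0.0757 from the same edgeR test). The ratio of *Cyp3a11* to *Cyp3a13* within a liver was 10.2 to 13.4 in AAV-NC and 18.4 to 28.4 in AAV-TuD livers. It follows from the opposite calls of both genes and adds no separate evidence.

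*Cyp3a13* lies 7.42 Mb away from the other 8 genes, which share one cluster at chr5:145345279-146113287. All 8 had a positive log2 fold change, between 0.23 and 0.64, and this held for all of them in each alternative fit. Taken singly, only *Cyp3a11* of the 8 passed the adjusted threshold in the edgeR test. *Cyp3a25*, the next most abundant of the cluster, had 165.0 ± 23.4 and 193.4 ± 20.8 CPM (log2 fold change 0.23, adjusted p = 0.155 by the edgeR quasi-likelihood test). *Cyp3a59* had 13.6 ± 2.30 and 19.7 ± 5.30 CPM (0.54, adjusted p = 0.0615 from the same edgeR test). The 4 genes *Cyp3a16*, *Cyp3a41a*, *Cyp3a41b* and *Cyp3a44*, of which the last 3 are known as female-biased in mouse liver, had means between 3.48 and 4.62 CPM with AAV-NC and between 5.25 and 7.12 CPM with AAV-TuD. Their log2 fold changes lay between 0.54 and 0.62, with adjusted p between 0.0522 and 0.142 by the edgeR quasi-likelihood test. *Cyp3a41a* and *Cyp3a41b* share all windows of 50 bases at their 3′ ends, and their values cannot be taken as separate measurements. When their reads were summed, the sum was called higher with AAV-TuD. Of the windows of *Cyp3a16* 15.7% were shared with other genes, 12.8% with the far more abundant *Cyp3a11*. For *Cyp3a44* and *Cyp3a25* the shared part was 19.7% and 14.5%. Part of these reads may be divided unevenly, so the 8 equal signs are not 8 separate observations. *Cyp3a57*, with 1.51 and 1.86 CPM, had the widest interval of the cluster, from -0.34 to 0.95.

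Because 8 *Cyp3a* genes had the same sign and *Cyp3a13* the other, the stretches before 3 of them are shown (RefSeq, GRCm38.p6, all on the minus strand, 5′ to 3′). Capitals mark matches to AGGTCA and to AGTTCA, the half-site letters read by nuclear receptors, on either strand. For *Cyp3a11*, 140 bases at chr5:145879965-145880104 are given, without 110 bases nearer the RefSeq start that GENCODE M21 places in the gene. For *Cyp3a25* the 250 bases at chr5:146009619-146009868 are given, and for *Cyp3a13* those at chr5:137921620-137921869.
Cyp3a11: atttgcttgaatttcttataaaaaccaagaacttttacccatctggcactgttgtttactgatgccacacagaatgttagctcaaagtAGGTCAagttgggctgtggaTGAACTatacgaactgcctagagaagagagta
Cyp3a25: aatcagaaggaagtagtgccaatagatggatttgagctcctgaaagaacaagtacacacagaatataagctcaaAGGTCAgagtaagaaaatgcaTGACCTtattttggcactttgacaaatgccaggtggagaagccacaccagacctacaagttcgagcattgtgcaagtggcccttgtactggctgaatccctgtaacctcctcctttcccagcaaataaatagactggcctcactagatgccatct
Cyp3a13: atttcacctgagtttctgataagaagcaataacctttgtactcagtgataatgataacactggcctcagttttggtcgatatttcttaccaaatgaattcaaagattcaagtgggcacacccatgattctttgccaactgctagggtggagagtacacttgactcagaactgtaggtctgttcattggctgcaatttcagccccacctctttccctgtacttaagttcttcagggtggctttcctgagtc
*Cyp3a11* holds AGGTCA 162 bases before its RefSeq start and AGTTCA, on the other strand, 142 bases before it. *Cyp3a25*, *Cyp3a57* and *Cyp3a59* each hold AGGTCA on both strands, at 176 and 155, 174 and 153, and 177 and 156 bases before the start. The pair of matches thus sits at nearly the same place and spacing in 4 genes of the cluster. *Cyp3a44* holds AGGTCA alone (150 bases before the start), *Cyp3a41a* and *Cyp3a41b* hold AGTTCA alone (130 bases), and *Cyp3a16* holds neither, although all 4 had positive log2 fold changes. Neither motif is in the 250 bases before *Cyp3a13*, but *Cyp4f13*, which was called lower, holds AGTTCA 56 bases before its start. Outside *Cyp3a*, AGGTCA was also found before *Cyp2f2* (log2 fold change -0.19) and *Cyp2j5* (-0.07), and AGTTCA before *Cyp4v3* (0.12), none of them called. Over the 250 bases before the start and both strands, AGGTCA was found in 7 of the 32 P450 genes with a promoter in the table (21.9%) and in 14.02% of all 32851 promoters, and AGTTCA in 5 (15.6%) and 11.8%. GCGTG, the core letters of the aryl hydrocarbon receptor site, was in 15.6% of the P450 promoters and 28.2% of all, and TTCNNNGAA, the STAT motif, in 6.25% and 7.02%. These matches describe the sequence and not binding.

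The *Cyp4f* genes encode hydroxylases of leukotrienes, other eicosanoids and vitamins with long side chains. They lie together at chr17:32506050-32947402, and their sum fell in every AAV-TuD liver below the lowest control, from 203.8 ± 10.3 CPM (SD, n = 5; range 186.6 to 213.1) to 161.8 ± 8.62 CPM (SD, n = 6; range 151.1 to 171.5), a ratio of 0.794. The ratio was 0.928 with library size alone, and 1 of the 4 genes other than *Cyp4f16* then had a positive log2 fold change. Of the 5 genes, 3 were called lower, 1 higher and 1 was not called.

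*Cyp4f14* (ENSMUSG00000024292, chr17:32905070-32917342, minus strand), a leukotriene hydroxylase and the most abundant of them, had 116.4, 94.2, 105.7, 101.0 and 101.4 CPM in AAV-NC livers 1, 2, 6, 7 and 8. In AAV-TuD livers it had 71.4, 77.6 and 90.6 CPM (lowest, median, highest). The groups did not overlap, and the log2 fold change was -0.39 (SE 0.08, adjusted p = 0.00521 by the edgeR quasi-likelihood test).

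*Cyp4f13* (ENSMUSG00000024055, chr17:32924688-32947402, minus strand), its neighbour, had 29.0, 28.8, 30.0, 31.9 and 32.9 CPM in AAV-NC livers, with the smallest ratio of highest to lowest (1.14) of all 35 genes in that group. In AAV-TuD livers it had 19.7, 22.4 and 26.4 CPM. The groups again did not overlap (log2 fold change -0.40, SE 0.09, adjusted p = 0.00916 by the edgeR quasi-likelihood test). *Cyp4f15* (ENSMUSG00000073424, chr17:32685627-32703352, plus strand) had 61.6, 58.4, 61.9, 67.0 and 69.2 CPM in AAV-NC livers and 49.4, 51.1 and 62.8 CPM in AAV-TuD livers. Here AAV-TuD 11 was inside the control range. The log2 fold change was -0.26 (SE 0.08, adjusted p = 0.0416 from the same edgeR test), and the call was lost when any of AAV-NC livers 1, 6, 7 or 8 or AAV-TuD livers 4, 5, 9 or 10 was left out, or with upper-quartile factors (highest adjusted p with 1 liver left out 0.0976 from the same edgeR test). The calls of all 3 genes were lost with library size alone, and without the 3 livers with over 25% *Mup* reads those of *Cyp4f15* (adjusted p = 0.152 by the same edgeR test) and *Cyp3a13* (adjusted p = 0.0530) were lost. Without these livers the log2 fold changes were of similar size, -0.23 for *Cyp4f15* and -0.29 for *Cyp3a13*.

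*Cyp4f16* (ENSMUSG00000048440, chr17:32536558-32551798, plus strand) was the rarest of the 35 genes and had the largest log2 fold change. It was represented by 2, 4, 5, 2 and 7 reads in AAV-NC livers 1, 2, 6, 7 and 8, and by 9, 26, 19, 20, 18 and 18 reads in AAV-TuD livers 3, 4, 5, 9, 10 and 11. Scaled, the AAV-NC values were 0.239, 0.503, 0.553, 0.250 and 0.681 CPM, and the AAV-TuD values 0.845, 1.59 and 2.37 CPM (lowest, median, highest). The groups did not overlap, although AAV-TuD 3 stood close to the highest control. The log2 fold change was 1.83 (SE 0.34, 95% interval 1.10 to 2.56, adjusted p = 0.00384 by the edgeR quasi-likelihood test). No control liver had more than 10 reads, so the gene met the filter through AAV-TuD livers alone, and a gene that enters in this way has to differ. *Cyp4f17*, the remaining gene of the cluster, had 5.46 ± 0.646 and 4.82 ± 1.51 CPM and was not called (-0.19, 95% interval -0.61 to 0.23).

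**Figure D2:**
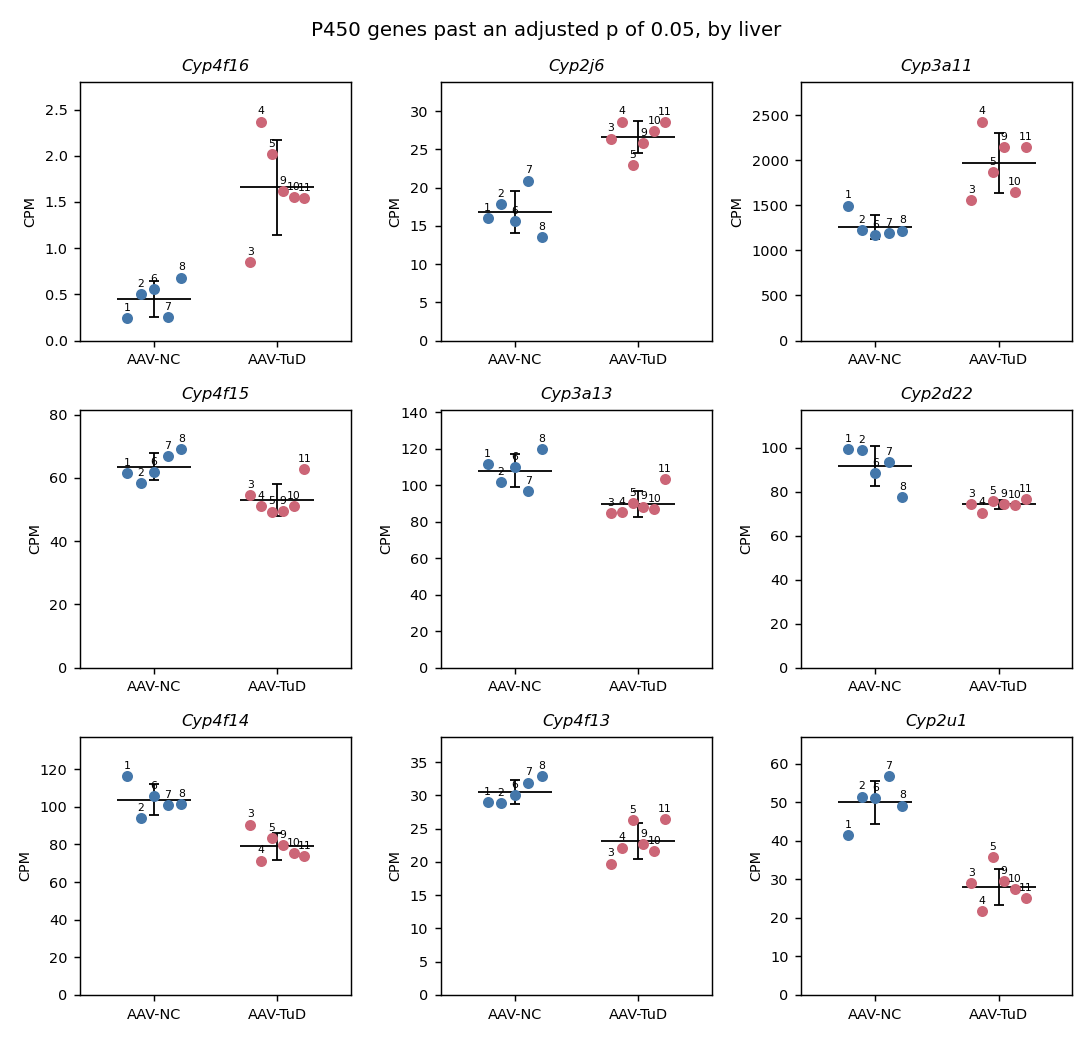
CPM (y axis, linear, from 0) of the 9 called P450 genes in each AAV-NC (blue, n = 5) and AAV-TuD liver (red, n = 6), with the replicate number beside each point, the mean as a line and the SD as bars. The groups do not overlap for 7 genes, while AAV-TuD 11 lies within the control range for *Cyp4f15* and *Cyp3a13*.

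*Cyp2u1* encodes a fatty acid hydroxylase that is conserved among vertebrates and acts on arachidonic acid and related long-chain fatty acids. The gene (ENSMUSG00000027983, chr3:131288441-131303227, minus strand) had the largest decrease of the 35. It gave 41.4, 51.5, 51.1, 56.8 and 49.1 CPM in AAV-NC livers 1, 2, 6, 7 and 8, and 21.7, 28.3 and 35.7 CPM (lowest, median, highest) in AAV-TuD livers. All AAV-TuD livers lay below all controls. The log2 fold change was -0.83 (SE 0.11, adjusted p = 0.000447 by the edgeR quasi-likelihood test), the smallest adjusted p of the 35 genes, and the call was kept in every alternative fit.

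The *Cyp2j* enzymes are epoxygenases of arachidonic acid. *Cyp2j5* made up 93.9% of their reads in AAV-NC livers, with 323.7, 312.9, 286.4, 306.2 and 340.5 CPM in AAV-NC and 253.6, 297.4 and 358.8 CPM in AAV-TuD livers. It was not called, and its log2 fold change of -0.07 had a 95% interval of -0.26 to 0.13. *Cyp2j6* (ENSMUSG00000052914, chr4:96516138-96553661, minus strand), from the same cluster, had 16.0, 17.9, 15.6, 20.9 and 13.5 CPM in AAV-NC livers and 22.9, 26.9 and 28.6 CPM in AAV-TuD livers. The groups did not overlap, and *Cyp2j6* rose by 0.67 on the log2 scale (SE 0.11, adjusted p = 0.00133 by the edgeR quasi-likelihood test). None of the windows at the 3′ ends of *Cyp2j5*, *Cyp2j6* and *Cyp2j9* was shared with another gene, so the reads of these neighbours can be told apart. Since *Cyp2j5* dominates, the subfamily sum hid this rise (334.4 ± 18.8 and 330.0 ± 38.6 CPM). *Cyp2j9* had 3.71 and 3.25 CPM and was not called.

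**Figure D3:**
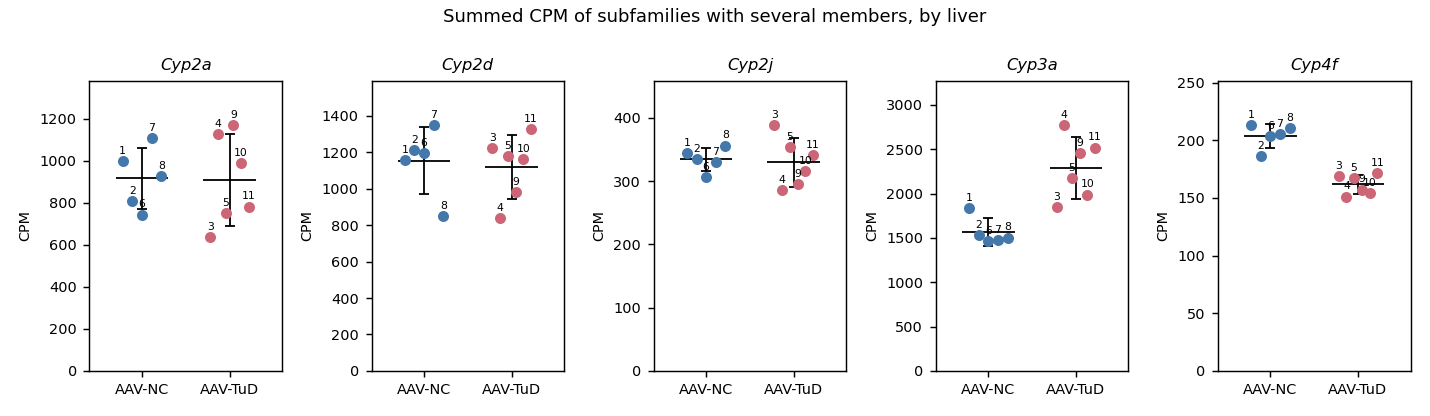
Summed TMM-scaled CPM (y axis, linear, from 0) of the 5 subfamilies with several members in each AAV-NC (blue, n = 5) and AAV-TuD liver (red, n = 6), with replicate numbers, the mean as a line and the SD as bars. The *Cyp3a* sums are higher and the *Cyp4f* sums lower in all AAV-TuD livers, whereas the *Cyp2a*, *Cyp2d* and *Cyp2j* sums overlap.

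The *Cyp2d* genes, relatives of the human drug-oxidizing CYP2D6, gave 1153 ± 184 and 1119 ± 177 CPM in sum, a ratio of 0.970. Only *Cyp2d22* (ENSMUSG00000061740, chr15:82370527-82380260, minus strand) was called. It had 99.4, 98.9, 88.4, 93.5 and 77.5 CPM in AAV-NC livers and 70.5, 74.2 and 76.7 CPM in AAV-TuD livers. The groups did not overlap, but AAV-NC 8 and AAV-TuD 11 were almost level. The log2 fold change was -0.30 (SE 0.07, adjusted p = 0.0133 by the edgeR quasi-likelihood test), and the call was lost with library size alone.

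Within this subfamily the 2 abundant neighbours had opposite signs. *Cyp2d9*, a male-biased testosterone hydroxylase, had 412.8, 519.5, 557.3, 636.3 and 288.9 CPM in AAV-NC livers and 408.6, 593.9 and 685.5 CPM in AAV-TuD livers, and was not called (0.24, 95% interval -0.13 to 0.61). *Cyp2d10* had 268.7 ± 23.6 and 206.7 ± 40.0 CPM (-0.38, adjusted p = 0.0521 by the edgeR quasi-likelihood test). Within a liver the ratio of *Cyp2d9* to *Cyp2d10* was 1.23 to 2.21 in AAV-NC and 2.48 to 3.01 in AAV-TuD livers. This pair was chosen after its values were seen. Between 19.2% and 39.7% of the 3′ windows of the 6 *Cyp2d* genes were shared with other genes, so part of their reads may be divided unevenly. The other 3, *Cyp2d26*, *Cyp2d40* and *Cyp2d11*, had log2 fold changes from -0.22 to 0.13 and were not called.

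None of the 4 *Cyp2a* genes was called by edgeR or DESeq2 or had an unadjusted p under 0.05, and their sums overlapped between the groups (916.8 ± 146 and 909.2 ± 218 CPM, a ratio of 0.992, which was 1.21 with library size alone and 1.17 without the 3 livers with over 25% *Mup* reads). *Cyp2a5*, the coumarin hydroxylase, had 625.0, 462.4, 408.0, 692.9 and 595.4 CPM in AAV-NC livers and 309.9, 521.7 and 760.7 CPM in AAV-TuD livers. The AAV-TuD values fell on both sides of the control range, with AAV-TuD 3 below it and AAV-TuD 4 and 9 above it. The 95% interval of the log2 fold change ran from -0.48 to 0.42, so a change of moderate size in either direction was not excluded. *Cyp2a4*, a steroid hydroxylase, followed *Cyp2a5* from liver to liver at a ratio of 0.0768 to 0.108 in AAV-NC and 0.0871 to 0.110 in AAV-TuD livers, and 33.3% of its 3′ windows are shared with *Cyp2a5*. *Cyp2a12* had 300.7 ± 27.4 and 306.2 ± 19.3 CPM, with an interval of -0.13 to 0.19, and *Cyp2a22* had 4.71 and 5.30 CPM.

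*Cyp2b10*, the classical CAR target that phenobarbital induces, had the second largest positive log2 fold change without being called (1.49, SE 0.56, adjusted p = 0.0963 by the edgeR quasi-likelihood test). It had 19, 5, 4, 8 and 17 reads in AAV-NC livers 1, 2, 6, 7 and 8, and 2, 49, 13, 49, 64 and 56 reads in AAV-TuD livers 3, 4, 5, 9, 10 and 11. In CPM this was 2.27, 0.629, 0.443, 1.001 and 1.65 with AAV-NC, and 0.188, 4.22 and 5.52 (lowest, median, highest) with AAV-TuD. AAV-TuD livers 4, 9, 10 and 11 lay above all controls, AAV-TuD 5 within them and AAV-TuD 3 below them. AAV-TuD livers 3 and 5 are those with 32.3% and 29.6% of *Mup* reads, against 8.58% to 16.1% in the other 4, and the part of this in the result was not tested. Without AAV-TuD 3 the adjusted p was 0.00978, and without all 3 livers with over 25% *Mup* reads 0.00519, both from the same edgeR test. Both fits leave out AAV-TuD 3, the lowest liver of all, which by itself favours a lower p, so they add no separate evidence. Among controls only AAV-NC livers 1 and 8 exceeded 10 reads, so without the AAV-TuD livers the gene would not have met the filter.

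**Figure D4:**
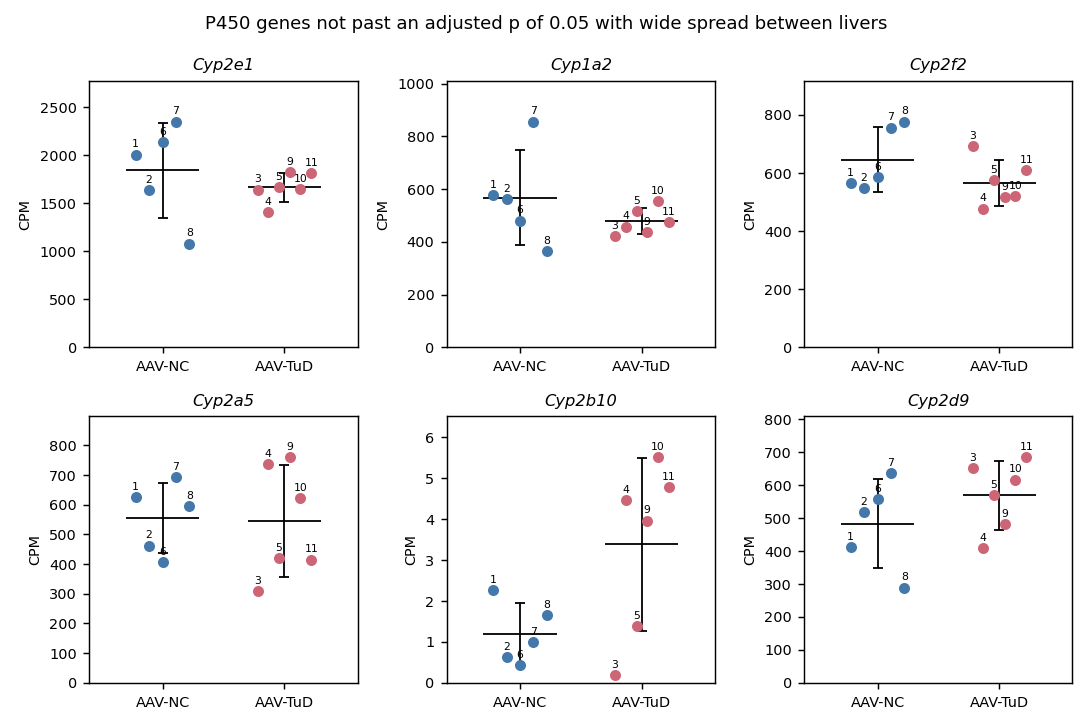
CPM (y axis, linear, from 0) of 6 P450 genes that were not called, in each AAV-NC (blue, n = 5) and AAV-TuD liver (red, n = 6), with replicate numbers, the mean as a line and the SD as bars. On this TMM-scaled axis AAV-NC 8 is lowest and AAV-NC 7, which has the lowest TMM factor, is highest for *Cyp2e1* and *Cyp1a2*. *Cyp2b10* is lowest in AAV-TuD 3.

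Several of the most abundant P450 genes varied between livers of one group. *Cyp2e1*, expressed by hepatocytes around the central vein, had 2006, 1637, 2136, 2348 and 1080 CPM in AAV-NC livers and 1408, 1657 and 1824 CPM in AAV-TuD livers. *Cyp1a2*, the caffeine-oxidizing target of the aryl hydrocarbon receptor with a similar place in the lobule, had 576.4, 561.2, 480.9, 855.6 and 366.5 CPM in AAV-NC and 423.3, 466.9 and 553.8 CPM in AAV-TuD livers. For both genes the AAV-TuD values lay within the control range, AAV-NC 8 was lowest and AAV-NC 7 highest. The highest AAV-NC liver exceeded the lowest 2.17 times for *Cyp2e1* and 2.34 times for *Cyp1a2*, against 1.29 and 1.31 times in AAV-TuD livers. *Cyp2f2*, a naphthalene-oxidizing enzyme of hepatocytes around the portal vein, had 566.4, 547.2, 585.9, 756.0 and 776.7 CPM in AAV-NC and 477.7, 548.1 and 693.0 CPM in AAV-TuD livers. It was high both in AAV-NC 8, where *Cyp2e1* and *Cyp1a2* were lowest, and in AAV-NC 7, where they were highest. AAV-NC 7 had 40.2% *Mup* reads and the lowest TMM factor (0.667), which raises its scaled values. Unscaled, it had 18757 *Cyp2e1* and 6039 *Cyp2f2* reads of 11971245. AAV-NC 6 had 19298 and 5294 of 9049943, so the high places of AAV-NC 7 for *Cyp2e1* and *Cyp2f2* depend on the scaling. None of these 3 genes was called, with 95% intervals of -0.48 to 0.19 for *Cyp2e1*, -0.59 to 0.09 for *Cyp1a2* and -0.44 to 0.06 for *Cyp2f2*.

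The other 3 subfamilies have 1 gene each and were not called. *Cyp4v3*, a fatty acid hydroxylase, had 143.7, 125.3, 143.4, 193.0 and 146.7 CPM in AAV-NC and 135.5, 166.7 and 185.0 CPM in AAV-TuD livers (0.12, 95% interval -0.10 to 0.35). *Cyp2r1*, a hydroxylase that activates vitamin D, had 7.04, 7.80, 8.30, 6.38 and 6.33 CPM in AAV-NC and 5.91, 6.39 and 6.80 CPM in AAV-TuD livers (-0.16, -0.41 to 0.08). *Cyp4b1*, better known from lung, had 3.94, 4.53, 5.53, 4.01 and 6.52 CPM in AAV-NC and 3.19, 4.35 and 4.78 CPM in AAV-TuD livers (-0.23, -0.58 to 0.13). The AAV-TuD range overlapped the control range for all 3.

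Genes that work with P450 enzymes were examined as lists, against the same share of 11.6% of all genes called. Of 8 electron donors and partners, 2 were lower, *Pgrmc1*, a haem-binding membrane protein (log2 fold change -0.33, adjusted p = 0.0125 by the edgeR quasi-likelihood test), and *Cyb5b*, a cytochrome b5 of the mitochondrial outer membrane (-0.29, adjusted p = 0.0406 from the same edgeR test). Of 12 genes of haem synthesis and breakdown, 2 were lower, *Fech*, which inserts iron into haem (-0.20), and *Blvrb*, a biliverdin reductase (-0.29). The list medians were -0.07 and 0.02, against -0.0024 for all genes.

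Of 24 transcription factors of P450 genes tested, 1 was higher and 2 were lower, with a list median of -0.04. *Nfe2l2*, the factor of the oxidative stress response, rose from 62.9 ± 8.20 to 101.6 ± 17.4 CPM (0.69, adjusted p = 0.00211 by the edgeR quasi-likelihood test), with all AAV-TuD livers above all controls. *Hnf4a*, a factor of hepatocyte identity and the only hepatocyte marker called lower, fell by 0.38 and *Foxa3*, a pioneer factor of liver, by 0.54 on the log2 scale. The receptors PXR (*Nr1i2*, 0.17, 38.2 and 42.9 CPM), CAR (*Nr1i3*, 0.41, 1.49 and 1.97 CPM) and the aryl hydrocarbon receptor (*Ahr*, 0.17, 9.38 and 10.5 CPM), named here for their role and after their values were seen, were not called. The same was true of P450 oxidoreductase (*Por*, -0.09, 157.8 and 148.0 CPM).

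Of 10 other monooxygenases, epoxide hydrolases and oxidases tested, *Fmo2*, a flavin monooxygenase, was higher (0.75) and *Maoa*, a monoamine oxidase, was lower (-0.56), with a list median of 0.06. Of 20 conjugation and transport genes tested, 1 was higher and 7 were lower, with a list median of -0.28. *Abcg2*, an export pump, was the higher one (0.31). The 3 lower genes with the smallest p were *Ugt2b35* (-0.39) and *Ugt2b5* (-0.45), which attach glucuronic acid, and *Slco1a1*, an uptake transporter for organic anions (-1.12, 325.3 ± 55.6 against 149.6 ± 65.6 CPM). The lower calls of this list outnumbered the higher ones, as they did among the P450 genes and among all genes above 50 CPM.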

How the data were processed

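The authors prepared 3′ mRNA libraries from 500 ng of liver RNA, aligned the reads to GRCm38 (STAR 2.5.3a in the submitters' processing notes, which also name DESeq2 1.38.3) and deposited raw counts per gene. The table holds 13669 genes, all of which reach 10 reads in 5 or more livers, and all identifiers matched GENCODE M21. The annotation used for counting, its strand setting and the treatment of multi-mapping reads are not given in the sources used here. Because the counts come from 3′ ends, they were not divided by transcript length.

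Groups were taken from the sample labels. Livers are separate animals, and p-values judge the difference between the groups against the spread between animals of a group. Genes exceeding 10 reads in 5 or more livers entered edgeR 4.0.16 (R 4.3.3, quasi-likelihood test, TMM normalization), and p-values were adjusted by Benjamini-Hochberg over all of them, with a threshold of 0.05. CPM values use TMM-scaled library sizes. At these depths 10 reads correspond to between 0.809 and 1.26 CPM before scaling, so the rarest genes carry large counting error. Subfamily sums are described without a test. The test was checked on simulated data.

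The members, the gene lists and the alternatives were chosen with earlier results of these data known. Every gene of the families was accounted for, and values for each AAV-NC liver, with the lowest, median and highest AAV-TuD value, were given for genes past the threshold and for the most abundant gene of each subfamily. From each list at most 3 genes per direction were named, those with the smallest p among the called. Similarity was the share of windows of 50 bases in the last 400 transcript bases found in transcripts of another gene. Seeds are bases 2 to 8, and motifs were searched in the 250 bases before each RefSeq start.

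Alternatives were DESeq2 1.42.0, its size factors, upper-quartile factors, library size alone, other filters, an abundance trend subtracted (lowess span 0.3), removal of *Mup* genes, summed copies and each liver left out. Removal of 3 livers with over 25% *Mup* reads was chosen after seeing the data. *Cyp2c* and *Cyp4a* genes were not analysed here.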

Additional observations from a re-analysis of the deposited data

Results flagged for a closer look

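In 80 groups of values (each P450 gene, and each sum of a subfamily with several members, in AAV-NC and in AAV-TuD livers), the gap between the most extreme liver and the nearest other was divided by the range of the group and compared with Dixon's critical value for 5 or 6 livers. It was exceeded in 5 of the 80, or 6.25%, and chance gives about 1 in 20, here 4. *Cyp3a11* in AAV-NC 1 was the highest of its group at 1496 CPM, against 1168 to 1225 CPM in the other controls (ratio 0.825). The *Cyp3a* sum, in which *Cyp3a11* dominates, was set apart in the same liver at 1840 CPM against 1465 to 1535 CPM (ratio 0.814). This liver lies nearest to the AAV-TuD group, and *Cyp3a11* stayed called with and without it. *Cyp3a57* was highest in AAV-NC 2 with 2.77 CPM against 1.001 to 1.46 CPM (ratio 0.741). *Cyp3a13* was highest in AAV-TuD 11 with 103.3 CPM against 84.6 to 90.1 CPM (ratio 0.707), and *Cyp4b1* lowest in AAV-TuD 4 with 3.19 CPM against 4.19 to 4.78 CPM (ratio 0.629).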

How the results depend on the processing

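*Cyp2u1*, *Cyp2j6* and *Cyp3a11* were called in the same direction in every fit with a test. So was *Cyp4f16*, whose entry through AAV-TuD livers alone makes this uninformative. The 9 called P450 genes became 13 with DESeq2, which added *Cyp2d10*, *Cyp3a16*, *Cyp3a41a* and *Cyp3a59* and lost none, and between 7 and 11 with 1 liver left out. The 3 higher genes became 6 with DESeq2, 5 with upper-quartile factors, 8 with library size alone and 5 without the 3 livers rich in *Mup* reads. With near-identical copies summed they were 4, the sum of *Cyp3a41a* and *Cyp3a41b* being added. With 1 liver left out they were 3 to 7, the extremes being 7 without AAV-NC 1 and 5 without AAV-TuD 3. The 6 lower genes were 4 to 7 with 1 liver left out and 1 with library size alone, where *Cyp2d22*, *Cyp3a13*, *Cyp4f13*, *Cyp4f14* and *Cyp4f15* were lost and 95.1% of all called genes were higher, against 62.6% with TMM. That scaling moved the median over all genes to 0.23 (log2). It gave subfamily ratios of 1.21 for *Cyp2a*, 1.15 for *Cyp2d*, 1.14 for *Cyp2j*, 1.74 for *Cyp3a* and 0.928 for *Cyp4f*. It also reversed *Cyp1a2* (0.0434), *Cyp2a5* (0.28), *Cyp2e1* (0.12), *Cyp2f2* (0.0342), *Cyp2j5* (0.14) and *Cyp2r1* (0.0619). With the abundance trend subtracted, *Cyp2a5* (0.13), *Cyp2e1* (0.10) and *Cyp2j5* (0.0765) were reversed. *Cyp2a5* ran from -0.15 to 0.086 with 1 liver left out, being positive without AAV-NC 1 (0.01), AAV-NC 7 (0.06), AAV-TuD 3 (0.086), AAV-TuD 5 (0.03) or AAV-TuD 11 (0.04), and was 0.27 without the 3 livers rich in *Mup* reads. None of these 6 genes was called in any direction by TMM, and the cause was not tested. The subfamily ratios with 1 liver left out ran from 0.935 to 1.05 (*Cyp2a*), 0.910 to 1.02 (*Cyp2d*), 0.952 to 1.01 (*Cyp2j*), 1.41 to 1.53 (*Cyp3a*) and 0.778 to 0.804 (*Cyp4f*). The log2 fold changes of the 9 called genes and of the most abundant gene of each subfamily were compared under all alternatives. Of these values 352 stayed the same, 22 lost the threshold, 3 newly passed it, 7 without a test moved and 15 were reversed. Other genes that newly passed the threshold, such as *Cyp2d10* and *Cyp3a59* with DESeq2, are not in this tally. The same means the same direction and side of the threshold. With the abundance trend subtracted, where there is no test, it means the same direction and a shift smaller than the SE. No paired analysis was possible because the groups share no replicate number. Depth limits the rarest genes most, with 130 reads for *Cyp4f16*, 188 for *Cyp3a57*, 232 for *Cyp2d11* and 286 for *Cyp2b10* over all 11 livers.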
